A study of Mus musculus with 4 samples.

Results

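Broad open domains are peaks of accessible chromatin that were at least 2000 bp wide in a peak list made from ATAC-seq of HEK293 cells. They were chosen by their measured width, on chromosomes 1 to 22 and without the part of chromosome 21 below base 13000000, and 803 of the 46296 peaks under this rule were members. That is 1.73% of these peaks (95% Wilson interval 1.62 to 1.86%) and 5.99% of the bases they cover, or 2000805 of 33408992 bp. The complete list holds 48751 peaks, among them those on the X chromosome, on scaffolds and in the omitted stretch.

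The list was made from 4 libraries together, 2 from cells given a scrambled TRAFTAC and 2 from cells given an NFkB TRAFTAC. HEK293 is an established human embryonic kidney line. A TRAFTAC is an oligonucleotide chimera that brings a DNA-binding factor to a tagged dCas9 protein, through which a small molecule can direct the factor to degradation. Both groups received the plasmid for dCas9 fused to HaloTag7 at 1 ug/mL with 25 nM of their TRAFTAC for 6 h, and then TNF-alpha at 5 ng/mL with 25 uM HP14 for 19 h. The paper also describes a DNase treatment of the cells shortly before harvest. TNF-alpha is a cytokine that activates the factor NF-kB, and no library from cells without it is part of the list. The protocol also names DMSO beside HP14, and the study describes DMSO in place of HP14 for a control sample of its protein blot. GEO gives the organism as mouse, while the cell line and the sequence names of the list are human. Each library came from 50000 cells and, per the protocol, at least 20 Mio read pairs. Values of single libraries were not used here, so the scrambled and NFkB TRAFTAC groups cannot be told apart, no replicate error can be given, and each value below is a description of the 4 libraries pooled.

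ATAC-seq uses the transposase Tn5, which cuts and tags DNA where nucleosomes and other proteins leave it exposed. Most open sites are short stretches at promoters and enhancers where transcription factors displace a nucleosome or a few. Broad open stretches are known from strongly used promoters, from clustered regulatory elements, and from repeated sequence, where reads of many copies can be placed on few positions of an assembly. The list alone does not separate these kinds.

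The domains were mostly little wider than the limit that chose them. Their median width was 2279 bp, with quartiles at 2113 and 2589 bp, against a median of 591 bp over all peaks under the rule. There were 245 domains of at least 2500 bp, 87 of at least 3000 bp, 28 of at least 4000 bp and 12 of at least 5000 bp. Just inside the limit, 20 domains measured 2000 to 2007 bp, with a median fold of 6.79. Just outside it, 22 peaks measured 1990 to 1999 bp, with a median fold of 7.52. The widths thus ran through the limit without a gap.

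At their summits, the domains were enriched but less steeply than narrower strong peaks. Fold enrichment is the number of fragments at the highest point of a peak over the local background, each with 1 added. The median fold of the domains was 7.09 (95% interval of the median 6.89 to 7.31), with quartiles at 5.53 and 8.92 and a range from 2.297 to 24.7. Over all peaks under the rule, the median was 5.68. The −log10 q-value measures how unlikely the summit count is under that background, after adjustment for testing many positions. It had a median of 97.0 in the domains (88.3 to 104) and 23.6 over all peaks. Fold, q-value and width come from the same pileup of fragments, and neighbouring peaks are not independent, so the intervals cover counting error only.

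Fold and q-value both rose with width up to about 1500 bp and were lower beyond it. Peaks of 300 to 599 bp had a median fold of 4.37, those of 600 to 999 bp 7.87, and those of 1000 to 1499 bp 10.8. Peaks of 1500 to 1999 bp had 8.94. Among the domains, the median fold was 7.38 at 2000 to 2499 bp (558 domains), 6.40 at 2500 to 2999 bp (158), 6.01 at 3000 to 3999 bp (59) and 6.77 at 4000 bp or more (28). The median −log10 q-value was 133 at 1000 to 1499 bp and 105, 79.4, 65.9 and 61.1 in the 4 bands of domains. By these medians, the widest domains were therefore not the strongest by either measure. Across the 803 domains the rank correlation of width was −0.15 with fold and −0.10 with the q-value, while across the 45493 narrower peaks it was 0.66 and 0.73. These correlations describe peaks of a single pooled pileup and have no p-value.

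**Figure D1:**
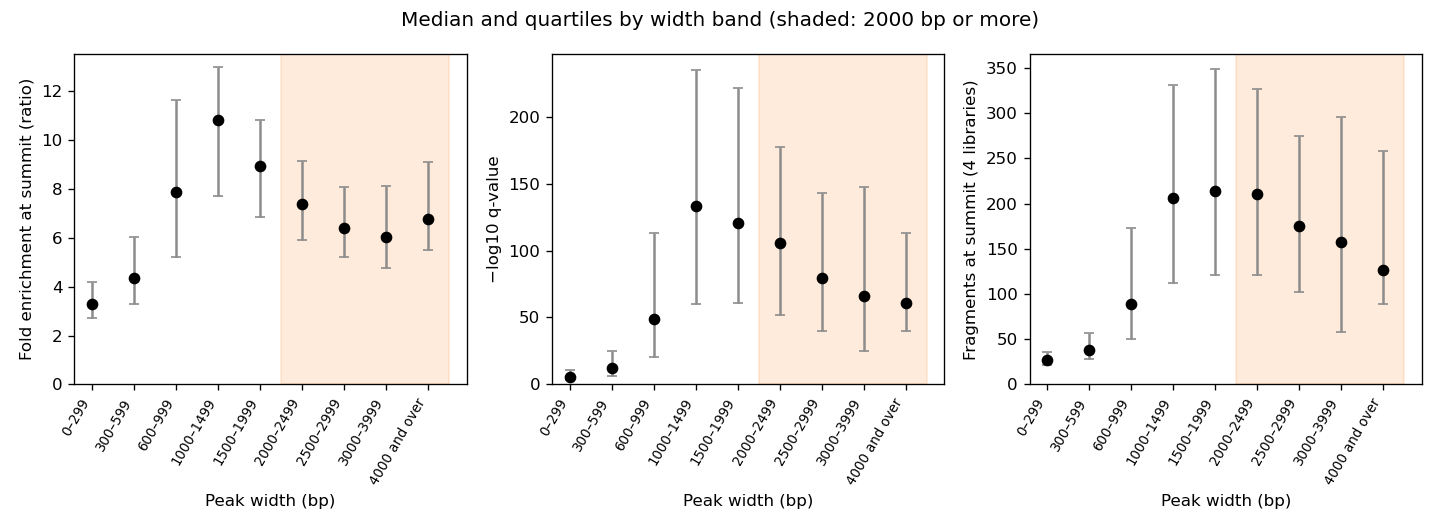
Fold enrichment (left), −log10 q-value (middle) and number of fragments at the summit (right) by peak width in bp, with points for medians and bars for quartiles. The medians are highest at 1000 to 1499 bp for fold (10.8) and q-value (133), and lower in the shaded bands of domains.

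The parts of the fold moved differently. The number of fragments at the summit had a median of 190 in the domains (21 to 3814) and 56 over all peaks. In the domains of 2000 to 2499 bp it was 210.5, close to the 214 of peaks of 1500 to 1999 bp and the 206 of peaks of 1000 to 1499 bp. The median local background was 26.4 fragments in all domains and 27.1 at 2000 to 2499 bp, against 23.03 at 1500 to 1999 bp and 18.4 at 1000 to 1499 bp. Between these 3 bands the fold thus fell beside a higher background and a similar summit count. The list comes from ATAC libraries only, so the local background is itself drawn from their fragments. Fragments of a wide domain can enter its own background, and how far they do was not tested. In the wider bands of domains both parts were lower. The summit counts were 175.5, 158 and 126.5, and the backgrounds 25.5, 24.2 and 17.0. The genome-wide background was 6.32 fragments, and 61 domains had a local background 10 or more times as high (7.60%, 5.96 to 9.64%), as did 1.21% of all peaks. This share was already higher in the wider of the other peaks, 2.44% at 1000 to 1499 bp and 4.56% at 1500 to 1999 bp (3.76 to 5.52%). The latter interval overlaps that of the domains of 2000 to 2499 bp, which had 6.63% (4.85 to 9.01%). At the other end, 54 domains (6.72%, 5.19 to 8.67%) had the genome-wide background itself. That share was 4.38% at 1500 to 1999 bp (3.59 to 5.32%), 5.81% at 1000 to 1499 bp, and 34.0% over all peaks, which are mostly narrow.

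More fragments at the summit went with a larger share of broad peaks. Of peaks with under 50 fragments, 0.301% were domains (63 of 20959), and of those with 50 to 99 it was 1.09%. The share was 3.43% at 100 to 199 fragments, 4.70% at 200 to 399 and 4.62% at 400 to 799. At 800 or more it was 7.14% (15 of 210, 4.38 to 11.4%), an interval that overlaps those of the bands from 200 to 799.

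The strongest domains stood far above the rest. A −log10 q-value of at least 200 was reached by 153 domains, and of at least 500 by 14. The highest was 2085, at chr18:106755-110911 (GRCh38, as are all positions here), where 3814 fragments lay at the summit over a background of 447. The domain chr10:133686956-133690340 followed with 2084 and 3240 fragments, and chr4:190177420-190181237 had 1756 and 2808. All of these 3 lie near the end of a chromosome arm. Of the 153 domains at 200 or more, however, 8 lay within 1 Mb of the outermost peak of their chromosome. That is 5.23% (2.67 to 9.98%), beside 6.60% of all domains. Away from the ends, chr17:43239171-43241499 had a −log10 q-value of 1959, above that of the chromosome 4 domain, and chr17:43270751-43273261 had 965. The domain chr19:54189260-54191373 had 1133 and chr4:49709258-49711898 had 1127. The 153 domains at 200 or more had a median width of 2215 bp and a median fold of 9.58, and none had the genome-wide background.

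The domains with the highest fold were mostly not those with the highest q-value. The 10 highest folds ran from 15.7 to 24.7, and 6 of these domains had the genome-wide background. The highest, 24.7, was at chr11:51756888-51760301, with 180 fragments at the summit, and the next, 24.1, at chr7:60309245-60312129, with 175. The domain chr4:189233450-189235459, with a fold of 22.5 and a −log10 q-value of 520, was the only 1 of these 10 that was also among the 15 highest q-values.

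Weak domains were also present. A −log10 q-value under 20 was found for 78 domains (9.71%), with a median of 39 fragments at the summit, a median fold of 4.37 and a median width of 2334.5 bp. Of these, 29 had the genome-wide background (37.2%, against 6.72% of all domains). Within 1 Mb of the outermost peak of their chromosome lay 15 (19.2%, against 6.60% of all domains). In the runs described further on, which hold 67 of the 803 domains, lay 15 (19.2%). There were 12 weak domains among the 55 on chromosome 10, 11 among 57 on chromosome 5 and 9 among 42 on chromosome 7. The lowest −log10 q-value, 3.95, belonged to chr16:36576593-36578627, with 21 fragments.

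**Figure D2:**
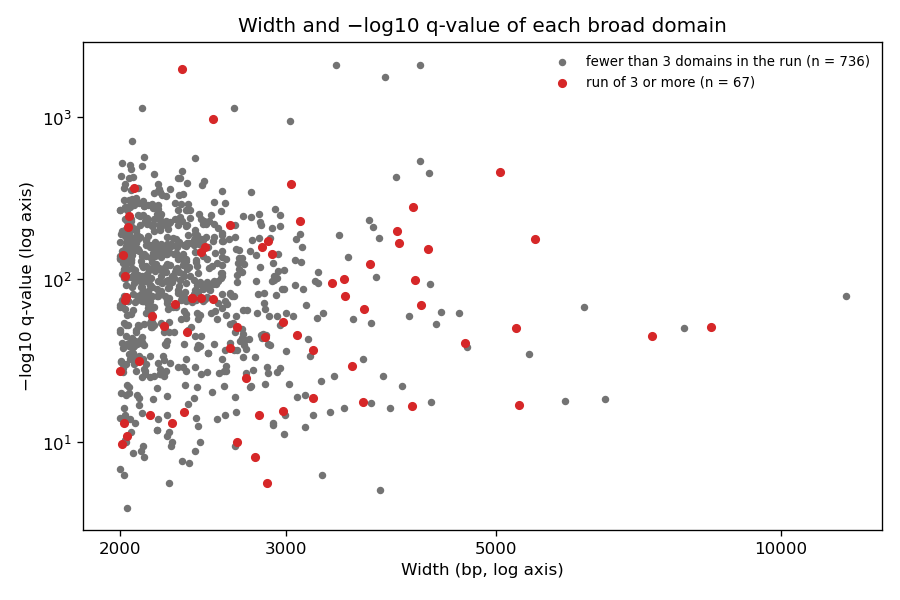
Width in bp against −log10 q-value, both on log axes, with 1 point for each of the 803 domains and the 67 domains of runs of 3 or more in red. Most points lie below 3000 bp, and the domains of 5000 bp or more have −log10 q-values between 17.0 and 455.

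The widest domains were mostly of middling strength. The widest, chr15:101752639-101764354, measured 11716 bp, with a fold of 5.27, a −log10 q-value of 78.5 and 210 fragments at the summit. The next was chr4:49091400-49099847 with 8448 bp and a fold of 4.47, followed by a domain on chromosome 8 with 7904 bp and a fold of 6.71. At 7313 bp, chr1:2681126-2688438 had a fold of 4.48, and the centres of 18 other peaks lay within 50 kb of its own. The domain chr7:63757241-63763763 measured 6523 bp, with a fold of 4.87 and a −log10 q-value of 18.4. At 6192 bp, chr17:121793-127984 had a fold of 7.65.

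The 25 widest, all of at least 4109 bp, had a median fold of 6.71 and a median −log10 q-value of 62.5. Their −log10 q-values ran from 17.0 to 2085, the latter at chr18:106755-110911 (4157 bp), the highest of all domains. In runs lay 10 of the 25, beside 67 of all 803 domains. The 25 were on 12 chromosomes, with 6 on chromosome 1 and 3 each on chromosomes 2 and 10. In 7 of the 25 the next peak was less than 1000 bp away, as it was for 9.22% of all domains and 8.28% of all peaks. The domain chr7:56370490-56374640 (4151 bp, −log10 q-value 531) was different, with its nearest peak 218954 bp away. No gene is named at these domains, because an annotation of GRCh38 was not used here.

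The summit of a domain lay in the central part of the peak about as often as in either outer part. It lay in the central 1 of 3 equal parts of the peak in 35.5% of the domains (32.3 to 38.9%), in the part at the lower coordinate in 260 and in the part at the higher coordinate in 258. In all narrower peaks together the central part held 52.9% of summits. It held 41.7% at under 300 bp, 44.8% at 300 to 599 bp, 65.5% at 600 to 999 bp and 63.5% at 1000 to 1499 bp. The share fell to 42.5% at 1500 to 1999 bp and was 33.7% at 2000 to 2499 bp. At 3000 to 3999 bp it was 49.2% (36.8 to 61.6%, 59 domains), and at 4000 bp or more 50.0% (32.6 to 67.4%, 28 domains). With the peak cut into 10 equal bins, the third and the eighth held the most summits, 15.1% (12.8 to 17.7%) and 14.4% (12.2 to 17.0%), and the fifth held 9.09% (7.29 to 11.3%). The interval of the fifth bin lay below those of the third and the eighth, but overlapped that of the sixth. The fourth, sixth and seventh bins held 11.2, 11.6 and 10.7%, with intervals that overlap those of the third and the eighth. The median distance from the summit to the nearer edge was 632 bp, and 659 domains (82.1%) had their summit within 1000 bp of an edge. That distance was 521 bp in peaks of 1500 to 1999 bp and 441 bp in peaks of 1000 to 1499 bp, so it grew by less than the width did.

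**Figure D3:**
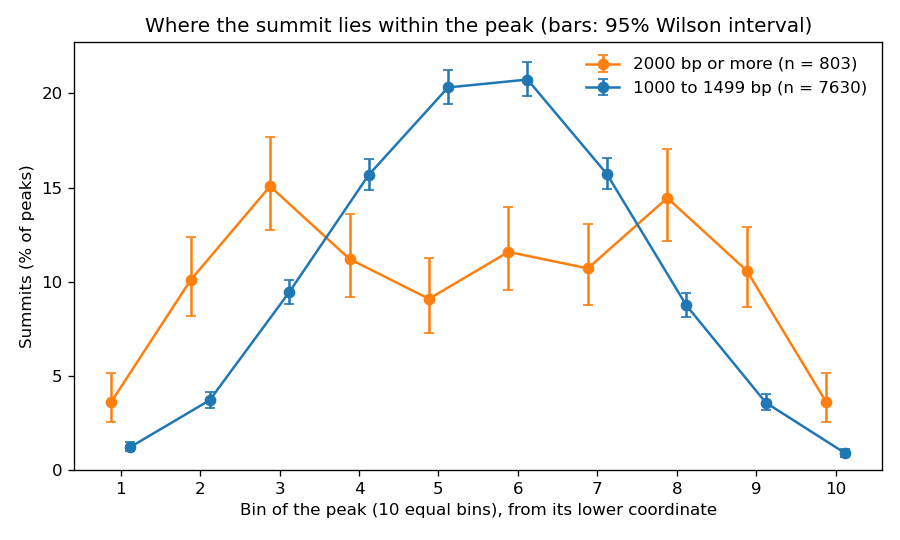
Share of peaks, in percent, with the summit in each of 10 equal bins of the peak counted from its lower coordinate, for the 803 domains and for 7630 peaks of 1000 to 1499 bp. Bars are 95% Wilson intervals. The narrower peaks have 1 central maximum, and the domains have higher shares in the third and the eighth bin, with 15.1 and 14.4%.

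The median gap to the nearest other peak was 9259 bp (8335 to 9956) for the domains and 9377.5 bp for all peaks. It was longer in the peaks nearest to the domains in width, 11878 bp at 1500 to 1999 bp and 11819.5 bp at 1000 to 1499 bp. The gap became shorter with width among the domains, from 10112 bp at 2000 to 2499 bp to 7542, 5008 and 3164 bp in the wider bands. For 123 domains (15.3%, 12.99 to 17.97%) no other peak had its centre within 50 kb of theirs. The same held for 14.9% of peaks of 1500 to 1999 bp, 13.9% of those of 1000 to 1499 bp and 11.7% of all peaks, so the domains were close to the peaks most like them in width. The most isolated was chr14:41604956-41607299, whose next peak was 2171672 bp away. The shortest gap was 222 bp, beside chr10:102643164-102645515. Among all peaks the shortest gap was 216 bp, so closer neighbours are not separate entries in the list.

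The nearest other domain was usually far away, at a median of 727767 bp. There were 638 domains (79.5%) alone within 100 kb, 49 pairs, and 14 runs of 3 or more domains with gaps of at most 100 kb, which together held 67 domains. Domains in runs had a median width of 2806 bp, against 2254.5 bp for the others, and a lower median fold, 5.79 against 7.17. Their median gap to the nearest peak was 1909 bp, against 9979.5 bp, and they had a median of 12 other peaks with centres within 50 kb, against 3. Runs were chosen for close neighbours, so these spacings follow in part from that choice. The runs differed from each other in strength.

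The runs with the most domains, 8 each, were at chr1:143192266-143266058, chr4:49091400-49156521 and chr10:40365807-40683571. In the run on chromosome 1 the fold went from 2.82 to 14.1 and the −log10 q-value from 10.1 to 229. Its 8 domains lay within 73793 bp, with 16 peaks in all. In the run on chromosome 4 the widths went from 2659 to 8448 bp, and 8 of its 13 peaks were domains. In the run on chromosome 10 the median was 37 fragments at the summit and the −log10 q-value stayed between 5.65 and 40.7, over backgrounds of 6.32 to 6.90.

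A run of 6 domains at chr5:49581904-49661827 had folds from 4.92 to 17.9 and a highest −log10 q-value of 455. The runs at chr1:121750820-121773591, chr1:124670875-124778355, chr10:41859271-41912582 and chr7:59250234-59375269 had median folds of 6.83, 12.5, 5.27 and 10.9. In the run on chromosome 7, all 3 domains had the genome-wide background of 6.32. Together with those of the previous paragraph, these runs lie at or near the centromeres and the heterochromatin beside them, as far as general knowledge of the assembly goes. No annotation of centromeres or repeats was read, and the part of repeated sequence in these widths was not tested. Domains outside runs of 3 or more also lay near these stretches, for example chr4:49709258-49711898, not far from the run at chr4:49091400-49156521. Leaving out runs therefore does not leave out every domain near them. Where single domains such as chr11:51756888-51760301 lie relative to centromeres or repeats was not read either.

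The other runs were elsewhere on the arms. At chr17:43239171-43273261, 3 domains had −log10 q-values of 1959, 36.8 and 965 from the lower to the higher coordinate, so that the middle one was far below its neighbours. At chr17:8118470-8249563, 4 domains had between 147 and 216, with 316 to 622 fragments at the summit. At chr6:27131523-27231872, 4 domains were alike in width, from 2025 to 2070 bp, with −log10 q-values from 74.6 to 364. The run chr5:472692-650978 was weak, with a median of 48.5 fragments, and those at chr1:940108-1080677 and chr1:2652190-2759105 had median folds of 5.16 and 4.48.

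**Figure D4:**
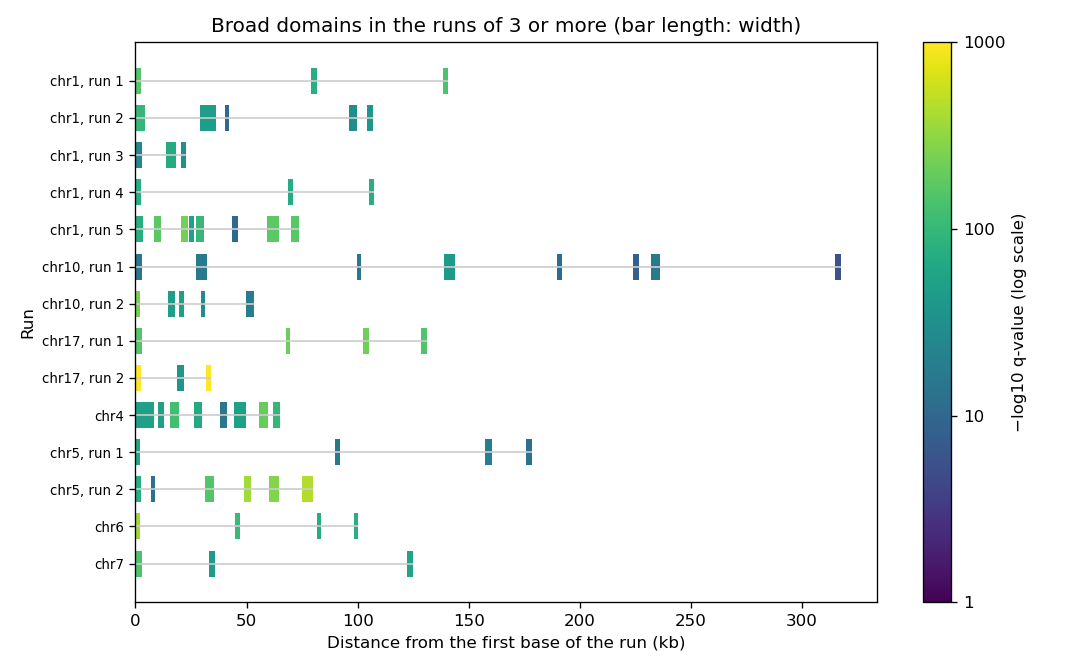
The 14 runs of 3 or more domains, with each domain as a bar at its distance in kb from the first base of its run, as long as the domain is wide and coloured by −log10 q-value on a log scale that ends at 1000. The run on chromosome 4 and the last on chromosome 1 pack 8 domains into 65122 and 73793 bp, and the first on chromosome 10 spreads 8 over 317765 bp.

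The share of peaks that were domains varied between the chromosomes. The intervals cover counting error only and are not adjusted for the number of chromosomes looked at. On chromosome 13, 26 of 830 peaks were domains (3.13%, 2.15 to 4.55%), and on chromosome 4, 50 of 1785 (2.80%, 2.13 to 3.67%). Chromosomes 10 and 5 had 2.46% (1.89 to 3.19%) and 2.28% (1.77 to 2.94%). These 4 intervals lie above the 1.73% of all chromosomes together. The lowest shares were 0.809% on chromosome 22 (0.463 to 1.41%), 0.915% on chromosome 15 (0.555 to 1.505%), 1.10% on chromosome 20, 1.14% on chromosome 21 (6 of 525) and 1.19% on chromosome 19 (0.868 to 1.63%). Of these, the intervals of chromosomes 22, 15 and 19 lie below 1.73%.

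As shares of the domains, chromosome 19 held 4.73% (3.47 to 6.43%) and 6.90% of all peaks, and chromosome 4 held 6.23% (4.75 to 8.12%) and 3.86% of all peaks. Chromosome 1 had the most domains, 81, which was 10.1% of them beside 10.7% of all peaks. Without the domains in runs, the share over all chromosomes was 1.59%. Chromosomes 10 and 5 then had 1.88% each (1.39 to 2.53% and 1.42 to 2.49%). Chromosome 1 went from 1.63 to 1.19% (0.922 to 1.53%), an interval below 1.59%. Chromosomes 10 and 5 thus stayed above 1.59%, but with intervals that include it. Chromosome 13 had no run, and chromosome 4 had 2.35% (1.75 to 3.17%), and both intervals lie above 1.59%. Chromosomes 22, 15 and 19 had no run either. The intervals of chromosomes 22 and 15 lie below 1.59%, while that of chromosome 19 (0.868 to 1.63%) includes it.

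**Figure D5:**
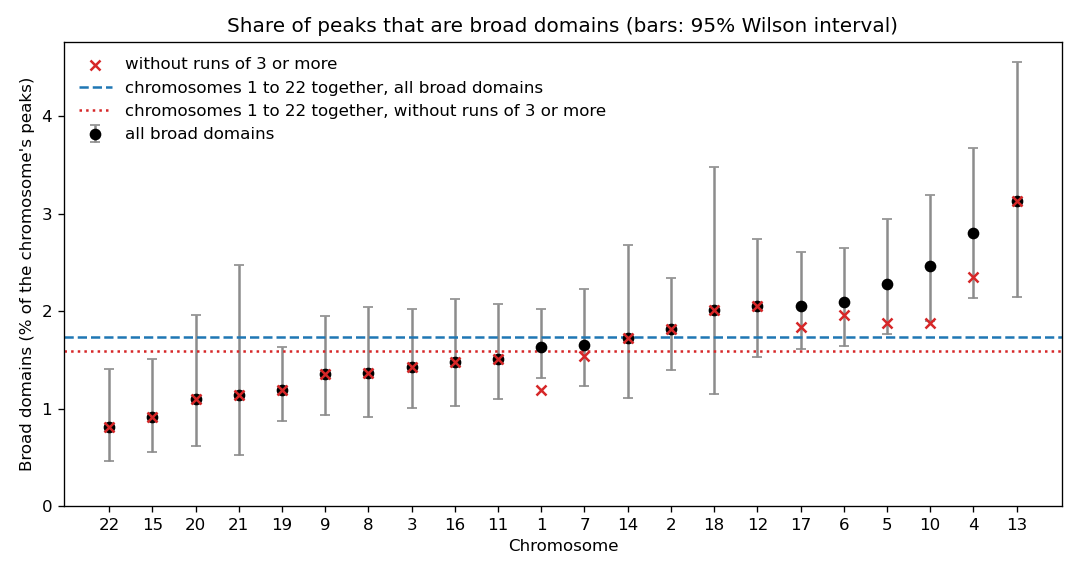
Share of each chromosome's peaks that are domains, in percent, with 95% Wilson intervals, ordered by that share. The dashed line is the 1.73% of chromosomes 1 to 22. Red crosses leave out runs of 3 or more and are to be read against the dotted line at 1.59%. Chromosome 13 is highest at 3.13%, and chromosome 22 lowest at 0.809%.

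Domains were more frequent towards chromosome ends. Within 1 Mb of the outermost peak lay 53 domains (6.60%, 5.08 to 8.53%), against 3.85% of all peaks (3.68 to 4.03%), and without the domains in runs it was 6.52% (4.95 to 8.54%). For chromosomes 13, 14, 15, 21 and 22, whose short arms hold repeats, only the end of the long arm was counted. Within 100000 bp there were 7 domains (0.872%, 0.423 to 1.79%) beside 0.430% of all peaks, whose interval of 0.374 to 0.494% overlaps that of the domains.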

How the data were processed

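ATAC-seq libraries of HEK293 cells with a scrambled (2) or an NFkB TRAFTAC (2) were pooled by the authors before peaks were made. Per the labels, they used Trimmomatic, Bowtie2, Picard and MACS2 with GRCh38.p10, and dropped peaks that overlap ENCODE's list of problem regions. The deposited list gives each peak's position, a score (10 times the −log10 q-value, cut to a whole number), the fold enrichment of the summit (a linear ratio), its −log10 p-value and −log10 q-value, and the summit position. Read depth per library is not given in the list.

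From the deposited fold and −log10 p-value, the summit count and the local background were recovered with a pseudocount of 1 and a misfit of at most 0.001, for all 803 domains. The recovery was tested on simulated data. Gaps are the bases between peaks, and peaks within 50 kb were counted from centre to centre. Shares have Wilson 95% intervals and medians order-statistic intervals, for counting error only. No test was run, since neither replicates nor single libraries enter the list and width chose the members. Python 3.11.15, numpy 2.4.6, pandas 2.3.3, scipy 1.17.1 and matplotlib 3.10.9 were used.

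The domains and the quantities described were chosen with earlier results of these data known. The width bands, the run gap of 100 kb, the q-value limits of 20, 200 and 500 and the windows of 50 kb and 1 Mb were set after the values were seen, and other run gaps and end windows were looked at first. Genes were to be named only from an annotation of GRCh38, which was not used here, so no gene or sequence is reported.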

Additional observations from a re-analysis of the deposited data

Results flagged for a closer look

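Peaks of at least 2000 bp also occurred outside the chromosomes described. The list pools control and treated libraries, so they cannot be set against a control. On the X chromosome there were 25 among 1877 peaks (1.33%, 95% Wilson interval 0.904 to 1.96%). On chromosome 21 below base 13000000 there were 19 among 156 peaks (12.2%, 7.94 to 18.2%), with a median −log10 q-value of 225. On unplaced and unlocalized scaffolds there were 30 among 393 peaks (7.63%, 5.40 to 10.7%), with a median −log10 q-value of 364. They stand here because the rule for the domains leaves these sequences out.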

How the results depend on the processing

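With a width limit of 1500 bp there were 2974 domains, with a median fold of 8.39, a median −log10 q-value of 114 and 40.6% of summits in the central of 3 equal parts. With 3000 bp there were 87, with 6.11, 62.5 and 49.4%, a median gap to the nearest peak of 4280 bp, and 1.15% of the domains on chromosome 19. The median gap was 10683 bp when neighbours below a −log10 q-value of 5 were ignored, and 9979.5 bp without runs of 3 or more. The other 11 of 23 values stayed within their interval or, for counts, within 1.5 times: among them 802 domains when a −log10 q-value of 5 was required, 1014 after joining peaks less than 500 bp apart, and 701 with each run counted once. The settings on runs, and the q-value without high local background, were chosen after seeing the data. No paired analysis was possible because all 4 libraries enter 1 pooled list, and for the same reason leaving out each replicate could not be done. The planned shares of gene starts were not run, since an annotation of GRCh38 was not used here.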
